A study of Homo sapiens with 5 samples.

Results

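The insulin-like growth factor (IGF) axis was examined through 10 genes in MHH-ES-1 cells that had received a mimic of miR-483-5p, a mimic of miR-483-3p or a scrambled control. The genes were the receptors IGF1R, INSR and IGF2R, the receptor substrates IRS1 and IRS2, and the binding proteins IGFBP2, IGFBP3, IGFBP4, IGFBP5 and IGFBP6. Every probe set that the array annotation gives to these genes was taken, which made 29 probe sets of the 54613 that are not array controls. None of the 29 is also annotated to another gene, and 27 of them passed a filter on dim signals that left 32768 probe sets for testing. The 2 probe sets under the filter both belong to IGFBP5.

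MHH-ES-1 is an established human Ewing sarcoma cell line, and all 5 arrays carry RNA from it. Cells grew in RPMI medium with 5% fetal bovine serum and were transfected by a lipofectamine reagent with synthetic RNA at 50 nM, and RNA was taken at 48 hours. The miR-483-5p group and the scrambled control group had 2 arrays each, and the miR-483-3p group had 1. In each pair the other array is labelled a repeat of the first, with no word on separate cultures, so p-values reflect a spread that could be technical only. All values come from 1 cell line, and no untransfected cells were analysed here.

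IGF1 and IGF2 act through IGF1R, a receptor tyrosine kinase closely related to the insulin receptor INSR, with which it can form hybrid receptors. The activated receptors phosphorylate IRS1 and IRS2, docking proteins that pass the signal to the PI3K and Ras branches. IGF2R has no kinase domain and takes IGF2 out of circulation, and the secreted binding proteins hold IGFs in the extracellular fluid. In Ewing sarcoma IGF1R signalling is known as a requirement for transformation by EWSR1-FLI1, the fusion oncoprotein of this tumour, and IGFBP3 is known as a gene that the fusion protein represses. MIR483 lies in an intron of IGF2.

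The deposited arrays were close to each other and to their label. Correlations between pairs of arrays over the 32768 probe sets that passed the filter lay between 0.969 and 0.98, and the trimmed mean signal was 150 on each array. All 9 markers of Ewing sarcoma cells on the marker list were above the filter, with a summed signal of 18242 to 19868 per array. Of 5 markers of other cell types, 4 were under the filter and PECAM1 was above it (132.6 to 169.5 on the 5 arrays), and their summed signal was 199.9 to 256. The ratio of 3' to 5' GAPDH probes, a sign of RNA integrity, was 1.09 and 1.10 on the miR-483-5p arrays, 1.02 and 0.996 on the control arrays and 1.06 on the miR-483-3p array. For ACTB, in that order, it was 1.182 and 1.073, 1.065 and 1.04, and 1.093. All 3 microRNA arrays were thus above both controls in both ratios, which move with the differences of miR-483-5p and of miR-483-3p from control given here, and their part in them was not tested.

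Across the 27 tested member probe sets no difference passed the adjusted threshold in any comparison, as was the case for all probe sets on the array. Differences are given as log2(signal + 32), a scale that understates changes of dim probe sets, with limma's standard error, and its two-sided p-values are adjusted over all tested probe sets. The percentage of probe sets with an adjusted p under 0.05 was 0 of the 32768 in miR-483-5p against control, 0 in miR-483-3p against control and 0 in miR-483-5p against miR-483-3p. The lowest limma adjusted p among the members was 0.528, 0.823 and 0.883 in that order, beside 0.495, 0.712 and 0.785 over all tested probe sets. An unadjusted p under 0.05 was found for 2730, 1834 and 1872 of all tested probe sets, where 1638 would be 5% of them. An exact permutation test of 2 arrays against 2 cannot give a p under 0.333. What follows therefore describes levels and differences that are not established as changes, in cultures where fewer cells with a transcript and less of it per cell cannot be told apart.

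Under miR-483-5p the members lay higher more often than lower. Of the 27 probe sets 19 (70.4%) had a positive difference from control, against 46.8% of all tested probe sets, and the median difference was 0.15 for the members and -0.018 over all. An unadjusted p under 0.05 with a higher signal was found for 4 members (14.8%), where the background was 4.06% of all tested probe sets. An unadjusted p under 0.05 with a lower signal was found for 2 members (7.41%) against a background of 4.27%. Both miR-483-5p arrays were above both control arrays for 6 members (22.2%, background 18.5%) and below both for 5 (18.5%, background 21.2%), so these shares were close to the background. Several probe sets measure the same gene and share its transcripts, so the counts are not over independent members. The members were also chosen with earlier results of these data known, so their excess over the background is no test.

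**Figure D1:**
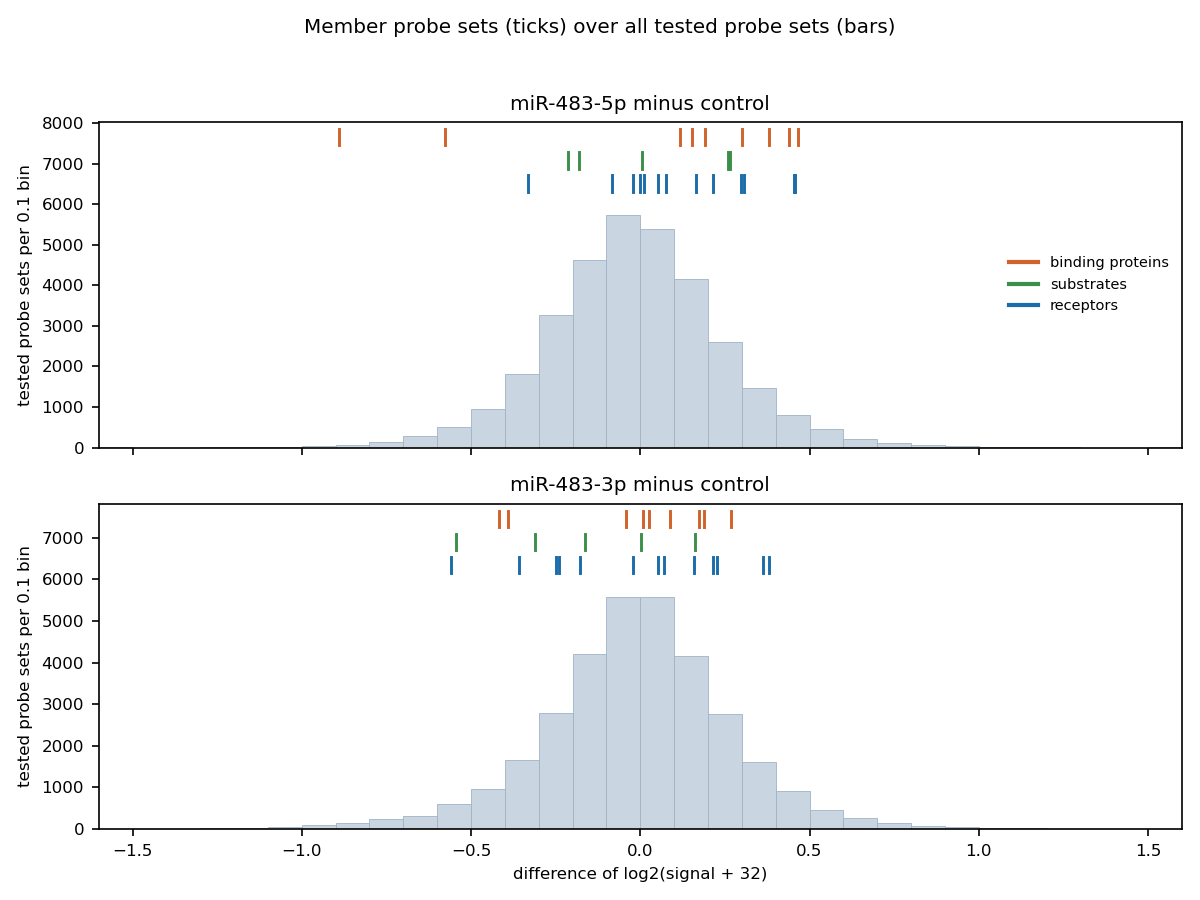
Differences from control on the log2(signal + 32) scale for the 27 tested member probe sets (ticks, coloured by role) above the distribution of all 32768 tested probe sets (bars, probe sets per bin of 0.1), for miR-483-5p (top) and miR-483-3p (bottom). In the upper panel the 2 IGFBP3 ticks lie farthest left, and 19 of 27 ticks are right of 0; in the lower panel 15 of 27 are.

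In 3 genes all 3 microRNA arrays lay outside the range of the controls, on the same side, by every probe set. IGFBP3 and IRS2 lay below it, and IGFBP6, which has a single probe set, above it. How many of all tested probe sets meet this rule was not counted. Taking miR-483-5p alone, 18.5% of all tested probe sets were free of overlap with control on the higher side and 21.2% on the lower. With miR-483-3p alone these shares were 32.5% and 35.6%. The 3 genes were picked by the position of their arrays. The 250 bases before their RefSeq gene starts (assembly GRCh38.p14) are printed 5' to 3' on the gene's strand to show how different their upstream regions are. Capitals mark matches to GGGCGG (the core of the GC box bound by SP1), TATAAA (the TATA box), TGTTTAC (the core bound by FOXO and other forkhead factors), and the EGR1 sites GCGGGGGCG and GCGTGGGCG, each searched on both strands, so CCGCCC is a GC box read from the other strand.
IGFBP3 (chr7:45921273-45921522, minus strand): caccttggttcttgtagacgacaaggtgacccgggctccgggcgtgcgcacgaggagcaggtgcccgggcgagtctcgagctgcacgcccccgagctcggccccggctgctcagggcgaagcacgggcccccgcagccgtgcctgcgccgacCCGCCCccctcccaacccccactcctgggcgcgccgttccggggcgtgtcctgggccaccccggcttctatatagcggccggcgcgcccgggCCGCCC
IRS2 (chr13:109786584-109786833, minus strand): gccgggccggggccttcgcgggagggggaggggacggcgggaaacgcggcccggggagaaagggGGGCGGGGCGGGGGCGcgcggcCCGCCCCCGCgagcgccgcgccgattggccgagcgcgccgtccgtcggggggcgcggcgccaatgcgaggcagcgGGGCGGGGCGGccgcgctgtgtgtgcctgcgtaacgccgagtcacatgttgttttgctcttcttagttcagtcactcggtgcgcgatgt
IGFBP6 (chr12:53097417-53097666, plus strand): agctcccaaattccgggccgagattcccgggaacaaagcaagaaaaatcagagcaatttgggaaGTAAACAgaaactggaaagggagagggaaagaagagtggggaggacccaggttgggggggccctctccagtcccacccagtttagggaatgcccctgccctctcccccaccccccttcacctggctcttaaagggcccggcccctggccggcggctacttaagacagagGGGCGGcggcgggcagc

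Upstream regions were found for 10 of 10 members, and the same 250 bases of 35116 RefSeq promoters served as the comparison. The GC box core was present in 9 of the 10 members and absent from IGFBP5 alone, while 42.6% of all promoters hold it. IGF2R held 6 matches, IRS2 5, INSR and IRS1 4 each, IGFBP3 and IGF1R 2 each, and IGFBP2, IGFBP4 and IGFBP6 a single match each. IGFBP2 has 3 promoter entries, and only the entry at its RefSeq gene start was used for these counts. The GCGGGGGCG form of the EGR1 site occurred only in IRS2 (2 matches, both overlapping GC boxes; 4.72% of promoters hold it), the GCGTGGGCG form in no member (0.72% of promoters), TATAAA in IGFBP4 only (10.7%) and TGTTTAC in IGFBP6 only (2.98%). CpG content separated the 3 printed regions: IRS2 had 42 CpG dinucleotides and IGFBP3 had 32, whereas IGFBP6 had 9, near the median of 11 over all promoters. These matches describe letters in a window and are not evidence that a factor binds there.

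IGF1R, the signalling receptor for IGF1 and IGF2 (chr15:98648539-98964530), was measured by 5 probe sets that did not move as a unit. The brightest, 225330_at, read 366 and 245 on the miR-483-5p arrays, 249 and 177 on the control arrays and 207 on the miR-483-3p array. The first miR-483-5p array stands above the rest, and the second lies between the control arrays. Its difference from control was 0.45 (SE 0.24, limma adjusted p = 0.659). With the first miR-483-5p array left out it was 0.19, with the second left out 0.71, and with the second control array left out 0.24. Probe set 203627_at was nearly level, at 206 and 190.4 under miR-483-5p, 162 and 214 in control and 197 under miR-483-3p. For 203628_at the control arrays themselves disagreed (51.0 and 115.0), and the miR-483-5p arrays (97.0 and 95.6) lay between them; its difference turned from 0.22 to -0.20 with the first of them left out, or 0.63 with the second left out. The 2 remaining IGF1R probe sets differed from control by 0.05 and -0.08 under miR-483-5p. Under miR-483-3p the IGF1R differences ran from -0.24 to 0.38 over the 5 probe sets, with 3 above 0 and 2 below. The value of 0.38 was that of 208441_at, which passed the filter on dim signals only through the miR-483-3p array.

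INSR, the insulin receptor (chr19:7112265-7294414), gave opposite differences in its 2 brightest probe sets. Probe set 226450_at read 86.7 and 68.7 under miR-483-5p, 89.9 and 123 in control and 61.3 under miR-483-3p, so control was the highest group. Its difference from control was -0.33 (SE 0.19, limma adjusted p = 0.680) for miR-483-5p and -0.56 (SE 0.23, adjusted p = 0.879) for miR-483-3p. The miR-483-5p value ranged from -0.51 without the first control array to -0.16 without the second, and was -0.21 without the second miR-483-5p array. The miR-483-3p difference had an unadjusted p under 0.05 in 5 of 13 processing settings and was -0.39 without the second control array. Probe set 213792_s_at went the other way, at 105 and 83.3 under miR-483-5p, 68.2 and 51.7 in control and 85.7 under miR-483-3p, with no overlap between control and either microRNA. Here the miR-483-5p difference was 0.46 (SE 0.18, limma adjusted p = 0.590), or 0.33 without the first miR-483-5p array and also 0.33 without the second control array. The other 3 INSR probe sets differed from control by 0.17, 0.30 and 0.01 under miR-483-5p, and their arrays overlapped. A statement on INSR as a gene therefore depends on the probe set chosen.

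IGF2R, the receptor that clears IGF2 and carries mannose 6-phosphate proteins to lysosomes (chr6:159969082-160111504), was brightest in 201393_s_at. This probe set read 474 and 385 under miR-483-5p, 393 and 293 in control and 296.5 under miR-483-3p, so the second miR-483-5p array lay below the first control array. The difference from control was 0.31 (SE 0.20, limma adjusted p = 0.712) under miR-483-5p. It was 0.11 without the second control array, 0.50 without the first, and 0.17 without the first miR-483-5p array. Probe set 201392_s_at was level between miR-483-5p (200.5 and 201) and control (194 and 215), and its lowest value, 152, was the miR-483-3p array. The third IGF2R probe set was dim, between 23.9 and 33.3 on every array.

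IRS1, a docking substrate of IGF1R and INSR (chr2:226731312-226799820), showed small positive differences under miR-483-5p that did not pass. Probe set 204686_at read 992 and 791 under miR-483-5p, 773 and 700.1 in control and 827 under miR-483-3p. All 3 microRNA arrays exceeded both controls. The miR-483-5p difference was 0.26 (SE 0.18, limma adjusted p = 0.729) and the miR-483-3p difference 0.16 (SE 0.21, adjusted p = 0.997). Leaving out the first miR-483-5p array gave 0.10 for the former, and the second 0.42. Probe set 242979_at gave 609.7 and 439 against 485 and 372, with 426 under miR-483-3p, and 238933_at was within 171 to 199.9 on all 5 arrays.

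IRS2, the second docking substrate (chr13:109752695-109786583), had repeats that read within 1.05 times of each other and was lower in all 3 microRNA arrays by both of its probe sets. Probe set 209185_s_at read 1199.5 and 1167 in control, 1043 and 989 under miR-483-5p and 802 under miR-483-3p. The groups did not overlap, and the order was control, miR-483-5p, miR-483-3p. The difference from control was -0.21 (SE 0.15, limma adjusted p = 0.736) for miR-483-5p and -0.54 (SE 0.18, adjusted p = 0.823) for miR-483-3p. Probe set 209184_s_at kept the same order at lower brightness, with 710.2 and 681 in control, 622 and 597 under miR-483-5p and 554 under miR-483-3p, and its differences were -0.18 and -0.31. The miR-483-3p value of 209185_s_at had an unadjusted p under 0.05 in 11 of 13 processing settings and stayed between -0.57 and -0.51 in all of them. The exceptions were the fits that drop a control array, where the difference was -0.52 and -0.56. Dropping a miR-483-5p array cannot move this difference, which stayed at -0.54, so those fits say little on how firm it is. Only 1 array stands behind each miR-483-3p value, and the fit assumes that it varies as the pairs do.

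IGFBP3, the main IGF carrier in serum and a local brake on IGF action (chr7:45912245-45921272), had the largest negative differences of any member under miR-483-5p. Probe set 210095_s_at read 709 and 667 in control, 493 and 411 under miR-483-5p and 507 under miR-483-3p. The control mean was 688 ± 30.0 (SD, n = 2) and the miR-483-5p mean 452 ± 58.1 (SD, n = 2), and all 3 microRNA arrays were below both controls. The miR-483-5p difference was -0.58 (SE 0.16, limma adjusted p = 0.528), a signal 1.49 times lower on this scale. Probe set 212143_s_at, at the same gene, read 547 and 596 in control, 218 and 391 under miR-483-5p and 428 under miR-483-3p. The first miR-483-5p array stood apart from the second here, and the mean of 305 ± 122 (SD, n = 2) was below the control mean of 572 ± 34.6 (SD, n = 2). Its difference was -0.89 (SE 0.26, limma adjusted p = 0.528), or 1.85 times lower, and became -0.51 without the first miR-483-5p array and -1.27 without the second.

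For IGFBP3 the sign was the same in each of 13 processing settings and both probe sets. The unadjusted p stayed under 0.05 in 13 settings for 212143_s_at and in 11 for 210095_s_at, whose exceptions were the fits without the second miR-483-5p array and without the first control array. No setting brought the IGFBP3 adjusted p under 0.05, the range being 0.220 to 0.929 for 210095_s_at. Under miR-483-3p the differences of the 2 probe sets were -0.42 (SE 0.20, limma adjusted p = 0.926) and -0.39 (SE 0.31, adjusted p = 0.971). The miR-483-5p arrays did not differ from the miR-483-3p array beyond the fit's error, with differences of -0.16 (95% interval -0.64 to 0.32) and -0.50 (95% interval -1.25 to 0.25). With the first miR-483-5p array left out these became -0.28 and -0.12, and with the second left out -0.036 and -0.88.

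IGFBP6, a binding protein with a strong preference for IGF2 (chr12:53097667-53102340), was higher under miR-483-5p. Its single probe set read 65.6 and 76.3 under miR-483-5p, 39.6 and 48.4 in control and 53.5 under miR-483-3p, with the miR-483-3p array between the groups. The means were 71.0 ± 7.57 (SD, n = 2) and 44.0 ± 6.22 (SD, n = 2), and the difference was 0.44 (SE 0.16, limma adjusted p = 0.574). The fit without the second miR-483-5p array gave 0.36, that without the first control array 0.35 and that without the second control array 0.52, and in none of these 3 was the unadjusted p under 0.05.

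IGFBP5, a binding protein that attaches to extracellular matrix (chr2:216672105-216695549), was higher under miR-483-5p in each of its 4 tested probe sets by small amounts. The brightest, 211959_at, read 228 and 178 under miR-483-5p, 143 and 132 in control and 141 under miR-483-3p, so the miR-483-3p array was at the control level. The miR-483-5p difference was 0.47 (SE 0.17, limma adjusted p = 0.578). It was 0.31 with the first miR-483-5p array left out. Probe set 203426_s_at read 46.1 and 55.6 under miR-483-5p, 31.3 and 31.8 in control and 29.7 under miR-483-3p, a difference of 0.38 (SE 0.15, limma adjusted p = 0.596). The remaining tested probe sets gave 0.12 for 211958_at and 0.15 for 203425_s_at, which turned to -0.04 without the second miR-483-5p array. Of the 2 untested IGFBP5 probe sets, 203424_s_at was between 2.9 and 4.5 on all arrays. The other, 1555997_s_at, read 2.8 and 31.2 on the miR-483-5p arrays, 24.8 and 22.4 on the controls and 11.3 under miR-483-3p, a spread between repeats that allows no statement.

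IGFBP2 and IGFBP4 complete the binding proteins. IGFBP2, which lies tail to tail with IGFBP5 on chromosome 2 with 7668 bases between them, read 6469.6 and 7022 under miR-483-5p, 5244.5 and 6645 in control and 5932 under miR-483-3p. The control arrays of IGFBP2 were further apart than the group means, and its difference of 0.19 (SE 0.18, limma adjusted p = 0.799) became 0.02 with the first control array left out, or 0.36 with the second left out. IGFBP4, a binding protein that the protease PAPPA cleaves to release IGF, read 605.0 and 461 under miR-483-5p, 386 and 463.5 in control and 486.5 under miR-483-3p. The miR-483-5p and control arrays of IGFBP4 overlapped, and the difference was 0.30 (SE 0.19, limma adjusted p = 0.710). Leaving out the first miR-483-5p array gave 0.12, the second 0.48, and the first control array 0.18. Brightness depends on the probe, so no level is compared between genes.

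**Figure D2:**
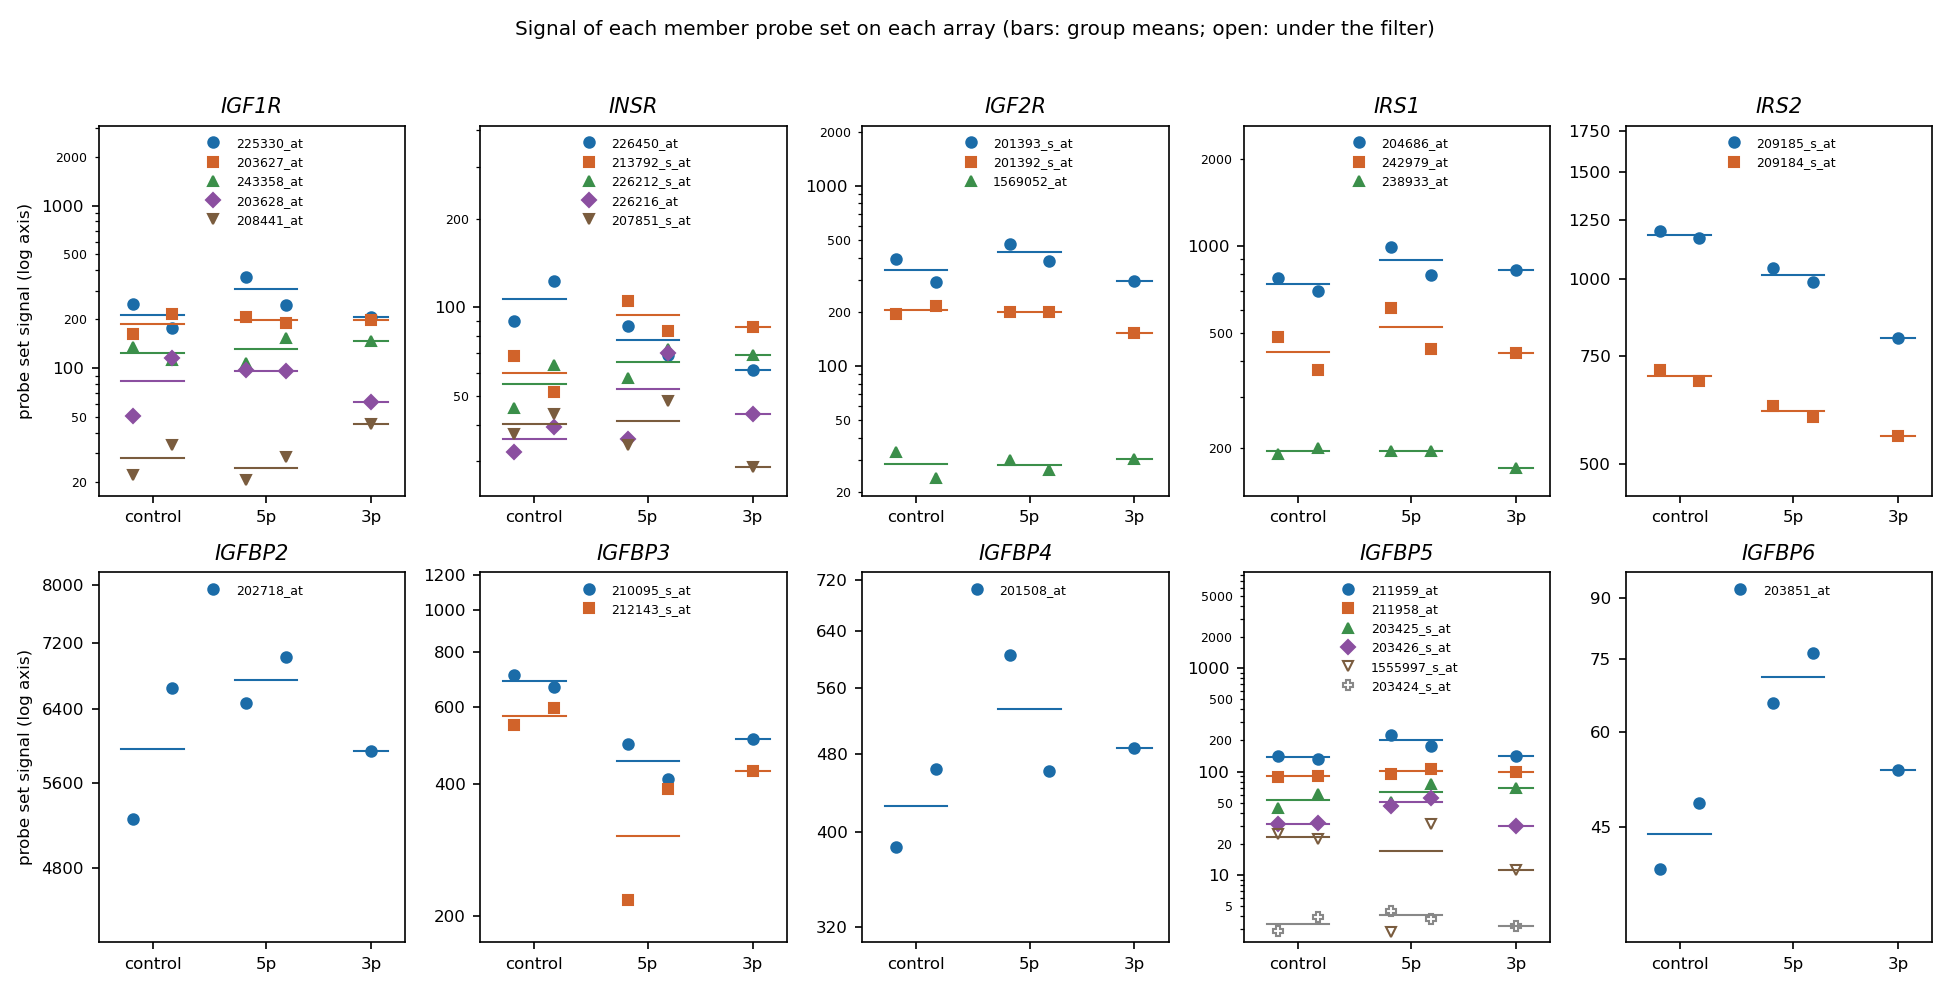
Signal of each member probe set (vertical axis, logarithmic, with its own range in each panel) on the 2 control, 2 miR-483-5p and 1 miR-483-3p arrays, with bars at group means and open symbols for the 2 IGFBP5 probe sets under the filter. IGFBP3 and IRS2 are highest in control by both probe sets, IGFBP6 is lowest in control, and the IGF1R and INSR probe sets cross each other.

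Read across the family under miR-483-5p, the binding proteins did not share a direction. IGFBP3 was lower by 0.58 and 0.89 on the log2 scale, whereas the tested probe sets of the other 4 binding proteins lay 0.12 to 0.47 above control. Differences of -0.33 to 0.46 were measured over the 13 receptor probe sets, and of -0.21 to 0.27 over the 5 of the substrates. The probe sets of IGF1R and INSR differed in sign among themselves, while both probe sets of IGFBP3 and of IRS2 stayed below 0 with any array left out. Keeping the sign was not particular to these genes: it turned in at least 1 setting for 9 of the 27 tested member probe sets.

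**Figure D3:**
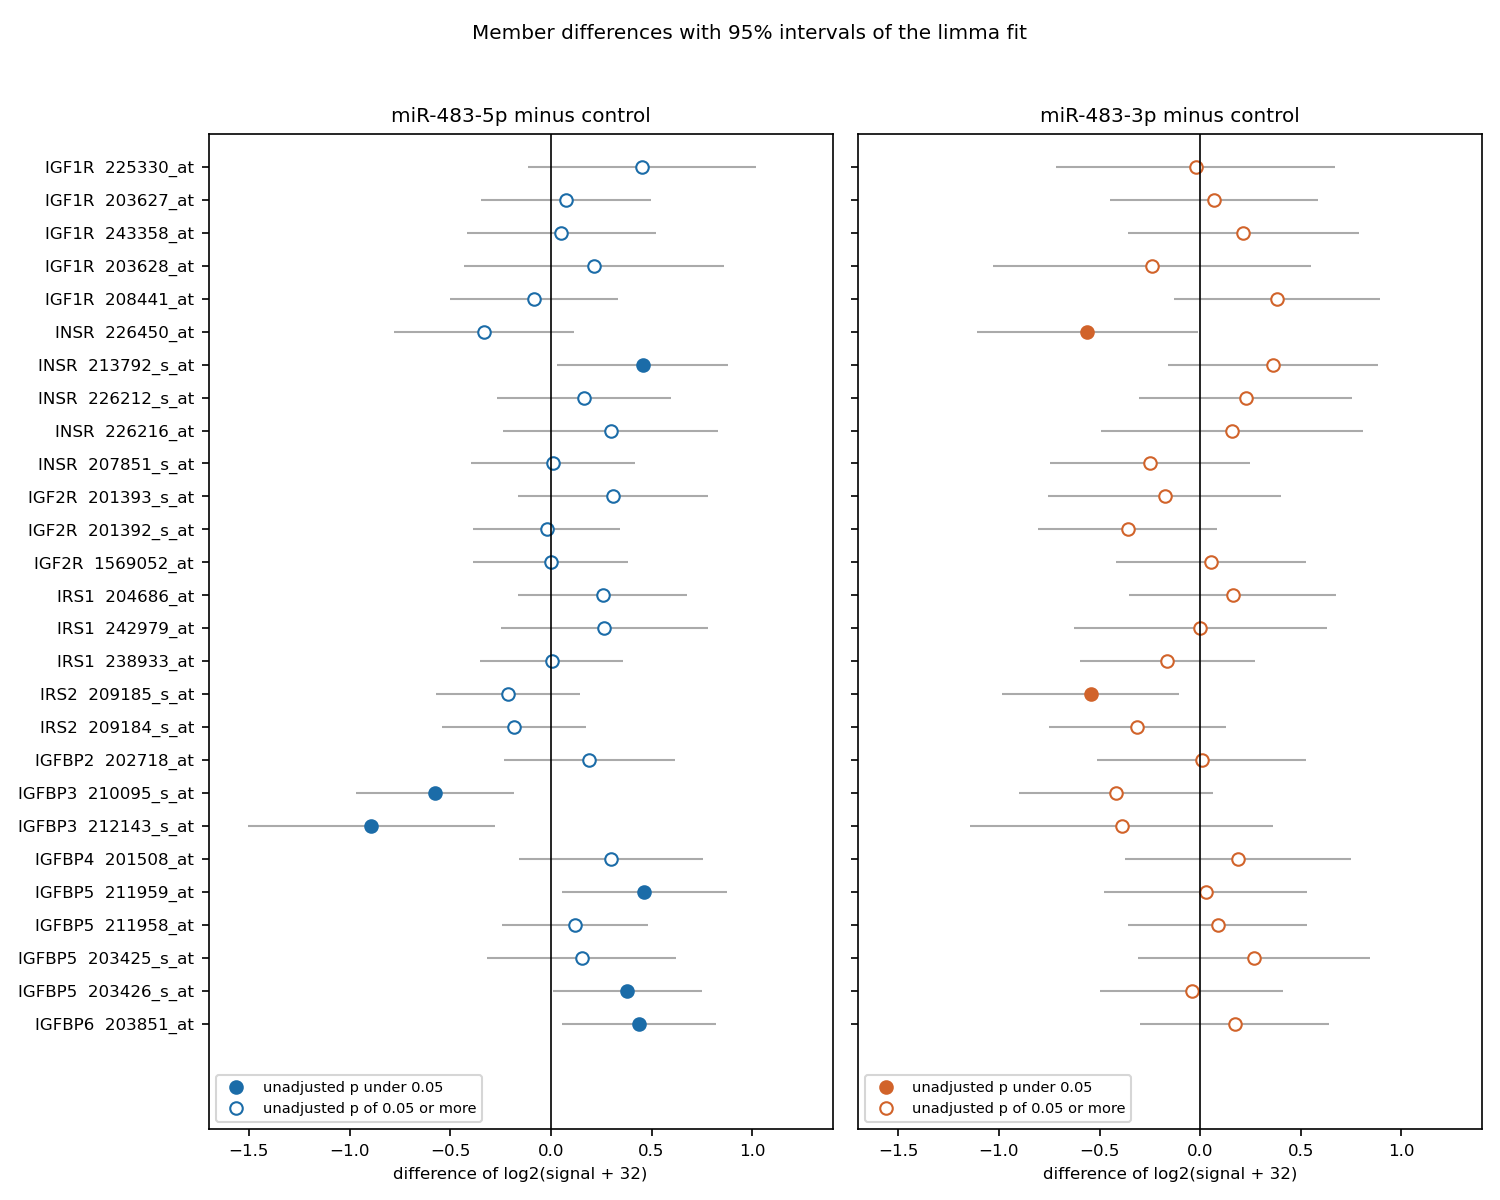
Difference from control on the log2(signal + 32) scale for each of the 27 tested member probe sets, with the 95% interval of the limma fit, for miR-483-5p (left) and miR-483-3p (right). Filled points have an unadjusted p under 0.05: 6 on the left (4 higher, 2 lower) and 2 on the right, both lower, and no point passes after adjustment.

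Under miR-483-3p the members were spread like the array as a whole. Of the 27 probe sets 15 (55.6%) had a positive difference, against 48.9% of all, and the member median was 0.007 against -0.006 over all. No member had an unadjusted p under 0.05 with a higher signal (background 2.01%), and 2 members, in IRS2 and INSR, had one with a lower signal (7.41%, background 3.58%). The miR-483-3p array lay above both controls for 10 members (37%, background 32.5%) and below both for 9 (33.3%, background 35.6%). This comparison uses the same control arrays as that of miR-483-5p, so the values of both are given side by side and are not independent. For miR-483-5p and miR-483-3p in turn, IGFBP3 stood at -0.58 and -0.42 in its brighter probe set, IRS2 at -0.21 and -0.54, and IGFBP6 at 0.44 and 0.17.

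Between the 2 arms of miR-483 no member had an unadjusted p under 0.05, where the background was 3.27% with miR-483-5p higher and 2.44% with it lower. Members lay more often on the higher side: 20 of 27 (74.1%) against 49.1% of all, with both miR-483-5p arrays above the miR-483-3p array for 14 (51.9%, background 33%) and below it for 4 (14.8%, background 32.8%). These counts all rest on the same single miR-483-3p array, and several probe sets share a gene, so they are not over independent members. The sign turned in at least 1 setting for 10 of the 27. IGF1R 208441_at differed by -0.46, but passed the filter only through its miR-483-3p array (45.5, against 20.5 and 28.2 under miR-483-5p). No test is drawn from that probe set. Apart from it, the differences with the lowest p-values were those of IGFBP5 203426_s_at (0.42, SE 0.19), IGFBP5 211959_at (0.44, SE 0.21) and IGF2R 201393_s_at (0.48, SE 0.24). Their limma adjusted p-values were 0.883 to 0.902. For IRS2 209185_s_at the miR-483-5p minus miR-483-3p difference was 0.33 (95% interval -0.11 to 0.77), so the lower miR-483-3p value is not shown to differ from the miR-483-5p value.

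Of the other genes of the pathway, listed by role, 60 of 71 had a probe set of their own and 55 could be tested, each by its brightest probe set. None passed adjustment in any comparison. Under miR-483-5p, 26 were higher and 29 lower. Those with an unadjusted p under 0.05 were 3 higher and 4 lower, where 4.24% and 4.45% of the 14591 genes tested this way had one. The 3 were STC1, a secreted inhibitor of the protease PAPPA (342 and 251 against 157 and 177, difference 0.71), PIK3CB, a catalytic PI3K subunit (0.55), and M6PR, the smaller mannose 6-phosphate receptor (0.53). The 4 were MAPK3, which encodes ERK1 (125 and 187 against 261 and 268, difference -0.68), IGFALS, the subunit that stabilises the serum complex of IGFBP3 (-0.62), PIK3CD, another catalytic PI3K subunit (-0.61), and GRB2, the adaptor that links receptors to Ras activation (791 and 820 against 1128 and 1334.5, difference -0.59). Other probe sets went against the value for PIK3CB (-0.37) and PIK3CD (0.11), and those of GRB2 gave -0.40 and 0.08.

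By list, the ligands and extracellular regulators (8 tested) had a median difference of 0.11 under miR-483-5p, the adaptors next to the receptor (9) -0.17, the phosphatases, ligases and feedback genes (12) -0.047, the PI3K, AKT and FOXO branch (15) 0.14, the Ras and ERK branch (5) -0.067, and the processing and trafficking genes (6) 0.086. The median over all genes was -0.0085. Of the 9 adaptors 7 were lower, and 10 of the 15 PI3K branch genes were higher, where 48.5% of all genes were higher. Under miR-483-3p the same medians were -0.004, -0.03, -0.029, -0.02, 0.023 and 0.16. With miR-483-3p only STC1 (0.64, limma adjusted p = 0.827) and IGF1 (0.55, adjusted p = 0.826) had an unadjusted p under 0.05, both higher, where 1.79% of all genes were higher and 3.35% lower at that p. The other probe sets of IGF1 ran from -0.72 to 0.50, and those of STC1 gave 0.48 and -0.05. Between the arms MAPK3 (-0.73, limma adjusted p = 0.832) and PIK3R3, a regulatory PI3K subunit (0.57, adjusted p = 0.859), had one, where 2.46% of all genes were lower and 2.71% higher at that p. The other PIK3R3 probe set gave -0.11.

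**Figure D4:**
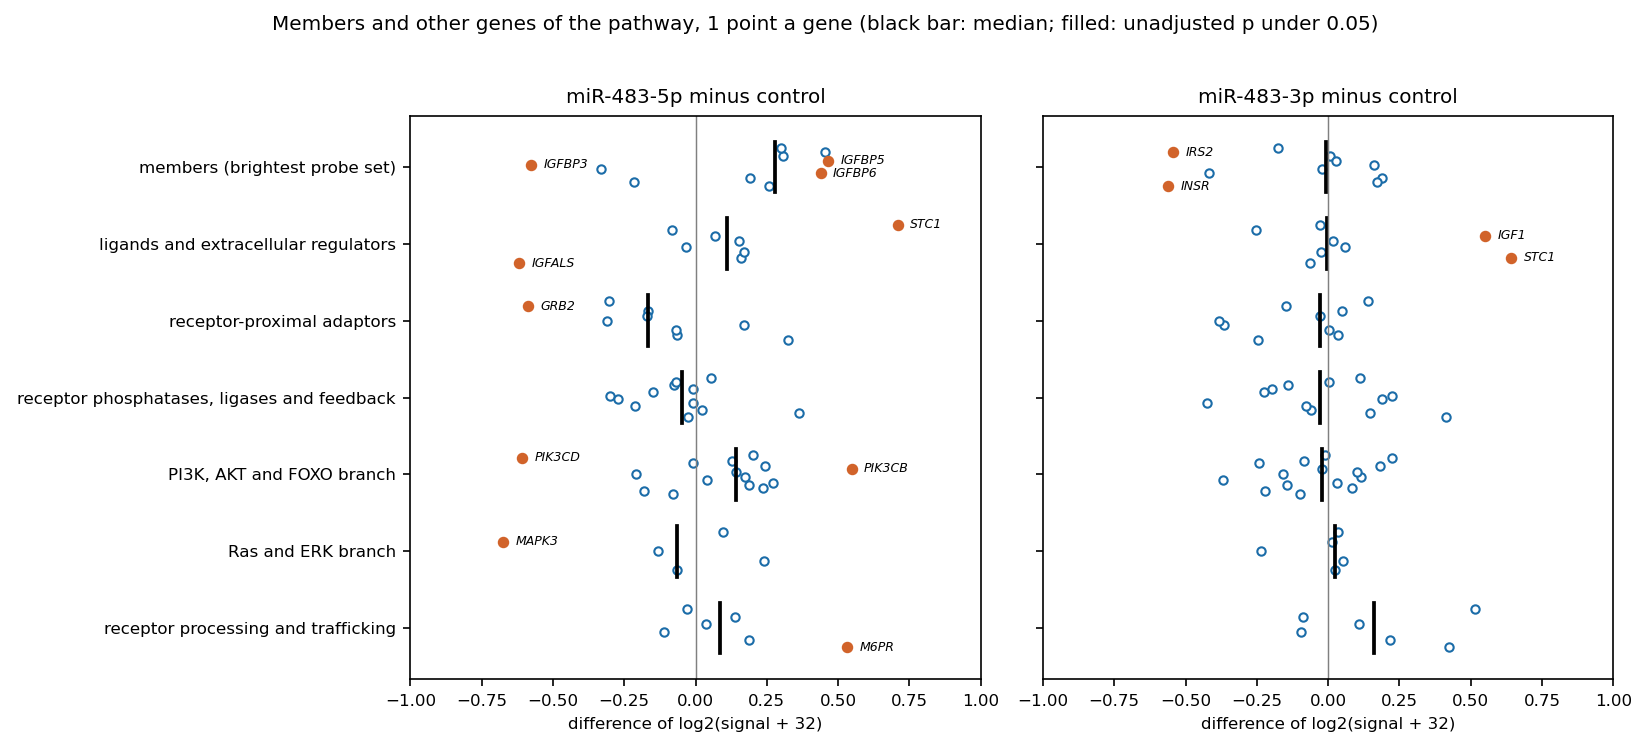
Difference from control on the log2(signal + 32) scale for the 10 members (brightest probe set each) and the 55 other tested pathway genes by list, 1 point a gene, for miR-483-5p (left) and miR-483-3p (right), with black bars at list medians. Filled, named points have an unadjusted p under 0.05 and all others do not. Medians lie between -0.17 and 0.14 on the left for the 6 lists.

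The ligand gene IGF2 is measured by 3 probe sets that also match the INS-IGF2 readthrough transcript, all brighter under miR-483-5p. For the brightest the difference from control was 0.95 (limma adjusted p = 0.516), larger in size than that of any member. The other 2 gave 1.52 and 1.13, but passed the filter only through the miR-483-5p arrays, so no test is drawn from them. Their control and miR-483-3p readings were all under the filter signal of 27.2. The brightest read 469.8 and 356 under miR-483-5p, 189 and 205 in control and 236 under miR-483-3p, and the next in brightness read 108.4 and 86.1, 13.3 and 12.8, and 16.6.

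Over the 5 arrays the member with the widest spread of group means in its brightest probe set was IGFBP3 (0.58 between the highest and lowest mean). Among 16830 tested probe sets of other single genes, with an SD over the arrays at least 0.5 times that of IGFBP3, the profiles most like it were those of FAM89B (r = 0.999), COG7 (r = 0.9972) and LAMA4-AS1 (r = 0.9963). With 5 points and so many candidates such values describe likeness only. FAM89B read 596 and 501 under miR-483-5p, 809 and 761 in control and 595 under miR-483-3p, the same order of arrays as IGFBP3 apart from the first miR-483-5p and the miR-483-3p array, which were level.

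**Figure D5:**
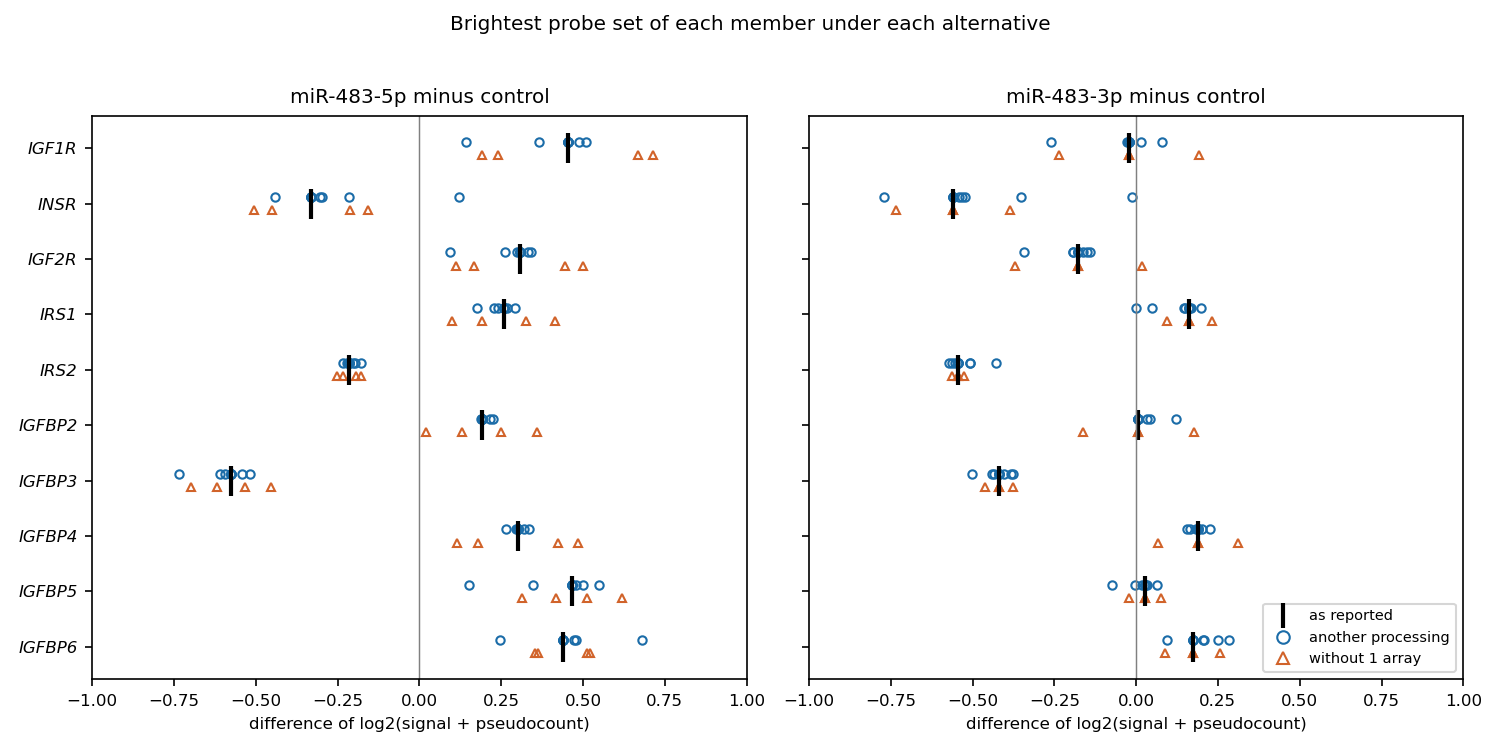
Difference from control for each member (brightest probe set, or the mean of its probe sets in that setting) as reported (black bars), under other processing (circles) and without 1 array (triangles), on the log2 scale with each setting's pseudocount, for miR-483-5p (left) and miR-483-3p (right). The IGFBP3 points under miR-483-5p lie between -0.73 and -0.45, and those of INSR cross 0 only where its probe sets are averaged.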

How the data were processed

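Affymetrix HG-U133 Plus 2 arrays measured the RNA of MHH-ES-1 cells. The deposited values are linear signal intensities, 1 per probe set and array, made with GCOS and Partek, per the submitters' processing notes, which give no versions. Detection calls were not used here. Of 54675 probe sets 62 controls were left out; the platform annotation gives 41091 probe sets 1 gene symbol, 1801 several and 11783 none. Signals were taken as log2(signal + 32), and probe sets whose mean lay under the 40th percentile (signal 27.2) were dropped. limma 3.58.1 in R 4.3.3 fitted group means over all 5 arrays (lmFit, eBayes), with 2 residual and 4.66 prior degrees of freedom, and Benjamini-Hochberg adjustment covered all 32768 tested probe sets. The scripts were tested on simulated data first. There, 3.5% of changes of 1 on the log2 scale passed adjustment for miR-483-5p, and 0.35% for miR-483-3p. For changes of 2 these shares were 85.2% and 55.5%. The number of arrays limits the precision.

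All probe sets of the 10 members are given. Where a gene has 1 value, it is that of its brightest probe set. Genes of the pathway lists were named where that value had an unadjusted p under 0.05, at most 3 a list by lowest p. Members and lists were chosen with earlier results of these data known. Alternatives covered scaling, filter, pseudocount, variance prior, gene summary, a replicate block and each array left out. Upstream sequences came from RefSeq (GRCh38.p14). Figures were drawn with matplotlib 3.10.9.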

Additional observations from a re-analysis of the deposited data

How the results depend on the processing

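No probe set on the array passed the adjusted threshold in any comparison under any setting. The count of members with an unadjusted p under 0.05 was examined after seeing the data. For miR-483-5p it was 6 and became 4 with the 60th percentile filter, 4 with pseudocount 100 and 3 with a variance prior following intensity. It was also lower with any array left out. For miR-483-3p it was 2 and became 1 under median centring, 1 under quantile normalization, 1 with no filter on dim probe sets, 1 with pseudocount 1, and 0 to 2 with an array left out. Between the arms it was 0 and became 1 with no filter, 1 with pseudocount 1, 1 with pseudocount 100, 2 with the intensity-following prior and 0 to 3 with an array left out. With the replicate block it was 7, 3 and 5 in that order. The repeats of the 2 pairs deviate together only weakly (correlation 0.172 over probe sets), and the numbers come from the order of deposit, so no pairing is taken from them.

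Among the 27 tested member probe sets the sign turned in at least 1 setting for 9 under miR-483-5p, 9 under miR-483-3p and 10 between the arms, each of them with a reported difference of 0.24 or less in size. The 9 under miR-483-5p were 4 of IGF1R, 2 of IGF2R and 1 each of INSR, IRS1 and IGFBP5, and the widest range was that of IGF1R 203628_at, -0.20 to 0.63 with an array left out. For the value that stands for each gene, these turned. Averaging all probe sets of a gene gave INSR 0.12 under miR-483-5p, and IGF1R 0.080 and IGFBP5 -0.0046 under miR-483-3p. Under miR-483-3p median centring gave IGF1R 0.014, and the replicate block gave IGFBP5 -0.074. With an array left out, miR-483-3p ranges were -0.24 to 0.19 for IGF1R, -0.37 to 0.017 for IGF2R, -0.16 to 0.18 for IGFBP2 and -0.022 to 0.076 for IGFBP5, and the ranges between the arms were -0.061 to 0.25 for IRS1 and -0.072 to 0.30 for IGFBP4. The cause was not tested. IGFBP6 has no value under the 60th percentile filter, where it is too dim.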

Other observations

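In 10 of the 27 tested member probe sets (37%) the first array was brighter than its repeat in both the miR-483-5p and the control pair, against 27.2% of all tested probe sets. The ratio of first to repeat was 1.49 and 1.41 for the brightest IGF1R probe set, 1.23 and 1.34 for that of IGF2R, 1.26 and 1.32 for INSR 213792_s_at and 1.39 and 1.30 for IRS1 242979_at. For both IRS2 probe sets it lay between 1.03 and 1.05. Other probe sets of the same genes went opposite ways, such as IGF1R 203627_at (1.08 and 0.759) and INSR 226450_at (1.26 and 0.73). The array numbers come from the order of deposit, and several probe sets share a gene, so these values are a description only.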
